A study of Mus musculus with 12 samples.

Results

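The knockdown and the overexpression clone of the small nucleolar RNA U17 were compared directly, with unmodified cells used to place each gene: a gene can have its WT level between the 2 clones or outside them. The members are the genes ordered U17_KD, WT, U17_OE or the reverse. Of 9108 genes tested, 3012 were called between the clones (33.1%, limma, adjusted p under 0.05), and 1406 of these had the WT mean between the clone means (15.4% of all genes). In 92 genes (1.01%) each of the steps U17_KD to WT and WT to U17_OE was called as well. The members were chosen by the order of means and by these calls, so their order is a description and was not tested again.

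Expression was measured on 12 Illumina bead arrays of NIH-3T3 cells, fibroblasts of mouse embryos that grow without limit, with 4 arrays for each of 3 groups. WT cells were unmodified. U17_KD is 1 stable clone that carries a construct named ShSnhg3, and U17_OE is 1 stable clone that carries a construct named pMDβglobinU17b. All groups spent 24 hours in medium with LPDS, a serum depleted of lipoproteins, so every difference below is between cells without that source of cholesterol. With 1 clone per construct, an effect of U17 and a trait of the clone cannot be told apart. The labels call the arrays biological replicates without saying whether cultures were separate, so p-values measure the spread between these arrays, which may be technical in part. The levels of U17 and of its host transcript Snhg3 were not checked here.

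U17 belongs to the H/ACA box small nucleolar RNAs, which are carried in the introns of host genes and held in a particle of 4 core proteins. Most H/ACA RNAs guide pseudouridylation, whereas U17 is known for its part in the cleavage of the precursor of the 18S ribosomal RNA. In these fibroblasts it is also known for an effect on Mgarp, whose protein (also called HUMMR) is induced by hypoxia and takes part in the transport of mitochondria in neurons. Genes induced by hypoxia are commonly bound by HIF, a pair of an oxygen-labile alpha subunit and Arnt, at sites with the core ACGTG or GCGTG.

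The upstream sequences of 4 genes are shown, picked from 8 examined that all had both steps called with U17_KD highest. The sequences are those of Mgarp, the collagen prolyl hydroxylase gene P4ha2, the pyruvate dehydrogenase kinase gene Pdk1 and the glycolytic gene Pgk1. Each runs 5′ to 3′ on the gene's strand, from 250 bases before to 50 bases after the start, from RefSeq annotation of GRCm38.p6. Capitals mark ACGTG or GCGTG on either strand, so a match on the other strand reads CACGT or CACGC.
Mgarp, chr3:51396498-51396797, minus strand: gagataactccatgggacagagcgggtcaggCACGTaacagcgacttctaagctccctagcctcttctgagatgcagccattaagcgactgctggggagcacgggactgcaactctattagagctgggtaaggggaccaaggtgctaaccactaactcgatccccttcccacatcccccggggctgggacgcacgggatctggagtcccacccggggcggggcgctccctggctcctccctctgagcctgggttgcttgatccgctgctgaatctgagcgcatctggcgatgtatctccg
P4ha2, chr11:54100674-54100973, plus strand: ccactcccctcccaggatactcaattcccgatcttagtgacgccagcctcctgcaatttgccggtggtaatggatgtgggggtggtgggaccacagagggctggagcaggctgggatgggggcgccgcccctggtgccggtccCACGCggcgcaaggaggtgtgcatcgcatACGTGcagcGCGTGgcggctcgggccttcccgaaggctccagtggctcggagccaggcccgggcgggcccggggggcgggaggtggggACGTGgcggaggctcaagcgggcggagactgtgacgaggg
Pdk1, the first of 2 windows, chr2:71872974-71873273, plus strand: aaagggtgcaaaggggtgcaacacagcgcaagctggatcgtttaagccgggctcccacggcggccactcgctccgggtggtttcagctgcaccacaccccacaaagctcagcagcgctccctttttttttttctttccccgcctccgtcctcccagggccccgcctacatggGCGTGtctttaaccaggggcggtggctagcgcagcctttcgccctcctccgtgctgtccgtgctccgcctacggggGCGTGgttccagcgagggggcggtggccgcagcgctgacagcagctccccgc
Pgk1, chrX:106186850-106187149, plus strand: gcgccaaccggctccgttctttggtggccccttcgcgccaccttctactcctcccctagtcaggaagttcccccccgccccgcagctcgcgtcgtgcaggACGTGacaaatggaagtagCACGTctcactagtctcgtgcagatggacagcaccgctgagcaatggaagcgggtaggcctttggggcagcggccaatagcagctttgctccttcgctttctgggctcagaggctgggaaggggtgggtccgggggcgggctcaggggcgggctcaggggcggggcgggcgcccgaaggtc
The windows hold 1, 4, 2 and 2 matches, in that order. Of 8 genes examined, Mgarp and the 7 members of the hypoxia and glycolysis lists with both steps called, 7 have a match in at least 1 window. Tpi1 has none, and neither does the second window of Pdk1. Of all 32851 windows of this length in the table, 43.8% hold a match. That share counts windows and not genes, and the 8 genes were picked for hypoxia or glycolysis, so the counts are not compared. A match is not a site at which binding was measured.

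Between 15820 and 15832 probes were detected per array, numbers held nearly equal by the use of a single detection level on normalized values. Arrays correlated at 0.980 to 0.995 within groups (18 pairs) and at 0.968 to 0.978 between the clones (16 pairs), over the kept probes. U17_OE replicate 3 stood apart: the SD of its log2 differences from the other U17_OE arrays was 0.393, and that of the other 11 arrays from theirs was 0.182 to 0.273. Without it, 143 genes had both steps called in place of 92, with 87 shared and none in the opposite order. All 12 fibroblast markers were measured, 8 of them called higher in U17_KD and Dcn called higher in U17_OE. Of 8 macrophage markers, Csf1r and Cd14 were measured. Their summed intensity was 432 to 520 in WT, 487 to 510 in U17_KD and 624 to 770 in U17_OE. The other 6, such as Ptprc and Adgre1, were not among the genes tested. Of 6 endothelial markers, Kdr and Vwf were measured, summed at 37.4 to 69.1 in WT, 114 to 143 in U17_KD and 38.7 to 62.4 in U17_OE. Pecam1, Cdh5, Tek and Tie1 were not among the genes tested. Of 10 muscle, bone and cartilage markers, Myog, Des and Sox9 were measured, and 0 were called between the clones. They summed to 14961 to 16559 in WT, 15641 to 17557 in U17_KD and 12709 to 16619 in U17_OE. The sums of the measured epithelial and adipocyte markers were at most 182. The part of these markers in the results was not tested, and fewer cells of a type cannot be told apart from less RNA per cell.

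The clones differed in both directions equally often: 1506 genes were called higher in U17_KD (16.5%) and 1506 higher in U17_OE (16.5%). The median difference over all genes was -0.01 on the log2 scale and the median absolute difference was 0.21. At least 2-fold differences were called in 349 genes (3.83%), 204 higher in U17_KD (2.24%) and 145 higher in U17_OE (1.59%). The arrays of the clones did not overlap in 2883 genes (31.7%).

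WT lay between the clone means in 46.7% of the genes called between them, against 32.1% of all genes tested. Genes called between the clones have clone means farther apart, which leaves more room for a WT mean between them. The higher share thus follows in part from the call and is a description. U17_KD was highest in 649 of the called genes with WT between (7.13% of all genes) and U17_OE in 757 (8.31%). WT was below both clones in 836 of the other called genes and above both in 770. Where WT lay between, it mostly lay near U17_OE: the step from U17_KD to WT alone was called in 729 genes, the step from WT to U17_OE alone in 93, and neither in 492. On a scale from 0 at U17_OE to 1 at U17_KD, the median WT position was 0.142 in the first set, 0.822 in the second and 0.50 in the third. These are called the KD step and the OE step below, and signed values are differences of the clone from WT. The KD step was called in 3685 genes over the whole table (40.5%) and the OE step in 1170 (12.8%), so an intermediate WT mean rarely comes with a measured change in each clone.

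**Figure D1:**
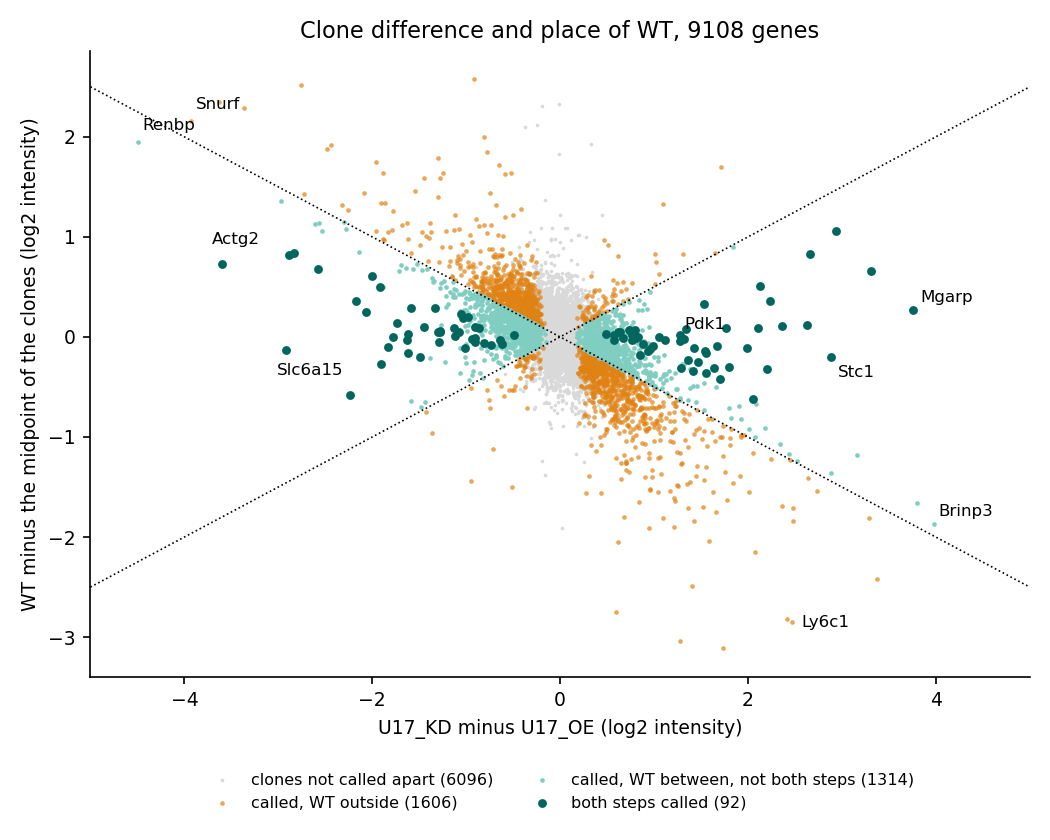
Each point is 1 of 9108 genes. The x axis gives U17_KD minus U17_OE and the y axis WT minus the midpoint of the clones, both as log2 intensity, and between the dotted lines to the left and right WT lies between the clones. Dark points are the 92 genes with both steps called, which spread around 0 on the y axis, and the 1606 orange points are called genes with WT outside the clones.

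The 92 genes with both steps called comprise 50 with U17_KD highest (0.549%) and 42 with U17_OE highest (0.461%). A gene with both steps called in 1 direction also has a large difference between the clones, so the clone difference of these genes is no further evidence. The difference between the clones ran from 0.49 to 3.76 (median 1.39) where U17_KD was highest, and was 0.49 to 3.60 in size (median 1.32) where U17_OE was highest. In 79 of the 92, the 3 groups of arrays did not overlap, against 143 of all 9108 genes (1.57%). The 92 were chosen by calls on these same arrays, so the lack of overlap is no further evidence either. The KD step was the larger one in 55 of 92 genes, 30 with U17_KD highest and 25 with U17_OE highest. Both steps share the WT arrays, so an error in the WT mean lengthens 1 step as it shortens the other.

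Mgarp had the largest difference between the clones among the genes with both steps called. Its log2 intensity was 9.34, 9.26, 9.09 and 9.18 on the U17_KD arrays, 7.65, 7.24, 7.78 and 7.74 in WT and 5.93, 5.53, 5.14 and 5.24 in U17_OE. The 3 groups did not overlap, and WT lay near the middle, at position 0.57. U17_KD exceeded WT by 1.62 ± 0.16 (SE, adjusted p = 2.40e-07) and WT exceeded U17_OE by 2.15 ± 0.16 (adjusted p = 5.02e-08, limma). Mgarp was detected on 1 of 4 U17_OE arrays, so the size of the lower step comes largely from undetected values, and the gene was known to respond to U17 in these cells.

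The genes Stc1, Ctsk and Cthrc1, which encode secreted or lysosomal proteins, were stepped in the same order as Mgarp. Stc1, which encodes the secreted hormone stanniocalcin 1, had 7.77, 7.77, 7.89 and 7.78 in U17_KD, 6.32, 5.73, 6.53 and 6.07 in WT and 5.20, 5.05, 4.74 and 4.71 in U17_OE. No U17_OE array detected it, and it was at least 4.79-fold higher in U17_KD (adjusted p = 2.34e-10). In such bounds the dim clone is set, array by array, at the lowest value of any detected probe, or at the probe's own value where that is higher. Ctsk, the collagen-degrading lysosomal protease cathepsin K, had 9.66, 9.98, 9.90 and 10.01 in U17_KD, 8.86, 8.62, 8.98 and 8.82 in WT and 7.52, 7.53, 7.56 and 7.50 in U17_OE. It was detected on all 12 arrays, and its steps of 1.07 ± 0.10 and 1.29 ± 0.10 both exceeded the spread within groups. Cthrc1, a secreted protein with collagen repeats, was at least 2.46-fold higher in U17_KD than in U17_OE, with group means of 6.85 ± 0.25 (SD, n = 4), 6.05 ± 0.30 in WT and 5.08 ± 0.26.

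Hvcn1, Rab29 and Tril, which encode membrane and vesicle proteins, took the same order. Hvcn1, the voltage-gated proton channel, had 7.54, 7.67, 7.47 and 7.62 in U17_KD, 6.27, 6.45, 6.38 and 6.42 in WT and 5.16, 4.79, 5.18 and 4.67 in U17_OE, where no array detected it. It was at least 4.09-fold higher in U17_KD than in U17_OE, and its other probe was called the same way. Rab29, a small GTPase of the Golgi and of lysosomes, had 9.72, 9.68, 9.63 and 9.62 in U17_KD, 8.73, 8.49, 8.38 and 8.61 in WT and 7.67, 7.69, 7.65 and 7.68 in U17_OE. These groups lay 1.11 ± 0.09 and 0.88 ± 0.09 apart, more than the spread within any of them. Tril, an accessory protein of Toll-like receptors, had means of 7.51 ± 0.12, 6.55 ± 0.19 and 5.40 ± 0.32 in U17_KD, WT and U17_OE, with 1 of 4 U17_OE arrays detecting it.

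Tmem181c-ps, a pseudogene, and Tmem181a were the only neighbouring pair, in the order of measured genes along a chromosome, among the 92. Tmem181c-ps had 9.13, 9.21, 9.15 and 9.0 in U17_KD, 8.11, 8.40, 8.03 and 7.95 in WT and 5.70, 5.63, 5.95 and 5.95 in U17_OE. Tmem181a had 7.92, 7.96, 7.77 and 7.77 in U17_KD, 7.41, 7.33, 7.34 and 7.34 in WT and 5.09, 5.51, 4.99 and 5.18 in U17_OE, a difference of at least 4.97-fold between the clones. In both genes the step to U17_OE was the larger one. The names mark related copies on chromosome 17, whose transcripts the probes may not separate, so they are uncertain as 2 genes.

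Where the order ran the other way, Actg2, Slc6a15 and Mycl were detected in U17_OE and WT but on no U17_KD array. Actg2, smooth muscle gamma actin, had 4.63, 4.60, 4.48 and 4.73 in U17_KD, 7.27, 6.96, 6.99 and 7.34 in WT and 8.04, 8.17, 8.29 and 8.35 in U17_OE. It was at least 6.36-fold higher in U17_OE than in U17_KD (adjusted p = 4.49e-13), and U17_OE exceeded WT by 1.07 ± 0.13 (adjusted p = 2.15e-05). Slc6a15, a transporter of branched neutral amino acids, had 4.74, 4.65, 4.71 and 4.71 in U17_KD, 5.63, 6.56, 6.18 and 5.73 in WT and 7.91, 7.53, 7.77 and 7.26 in U17_OE, a bound of at least 4.21-fold. Its other kept probe, detected on 5 of 12 arrays, had a difference of 0.01 (adjusted p = 0.983), so the order of Slc6a15 rests on 1 probe. Mycl, a transcription factor of the Myc family, was at least 1.81-fold higher in U17_OE, with 6.48, 6.37, 6.39 and 6.36 there, 5.63, 5.57, 5.63 and 5.68 in WT and 4.58 to 4.95 on the U17_KD arrays, none of which detected it.

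Sdc3, Sfrp1, Slc17a6, Gdap1l1 and Naprt, also with U17_OE highest, were detected on all 12 arrays. Sdc3, the heparan sulphate proteoglycan syndecan 3, had 8.35, 8.30, 8.26 and 8.51 in U17_KD, 9.51, 9.51, 9.80 and 9.74 in WT and 10.54, 10.58, 10.12 and 10.45 in U17_OE. Its KD step of -1.29 ± 0.11 was larger than its OE step of 0.78 ± 0.11. Sfrp1, a secreted antagonist of Wnt ligands, had 5.93, 6.33, 6.18 and 6.57 in U17_KD, 7.05, 7.39, 6.99 and 7.15 in WT and 7.88, 7.77, 8.20 and 8.29 in U17_OE, with equal steps of -0.89 ± 0.15 and 0.89 ± 0.15. Its other probe was called the same way, with a difference of -2.18. Slc17a6, a vesicular glutamate transporter best known in neurons, had means of 6.17 ± 0.13, 6.99 ± 0.05 and 8.0 ± 0.24 in U17_KD, WT and U17_OE. Gdap1l1, a relative of the mitochondrial protein Gdap1, had 6.02 ± 0.16, 6.81 ± 0.22 and 7.66 ± 0.16. Naprt, which starts NAD synthesis from nicotinic acid, had 6.17 ± 0.42, 7.18 ± 0.08 and 7.91 ± 0.18. The 3 levels did not overlap in any of these 5 genes.

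**Figure D2:**
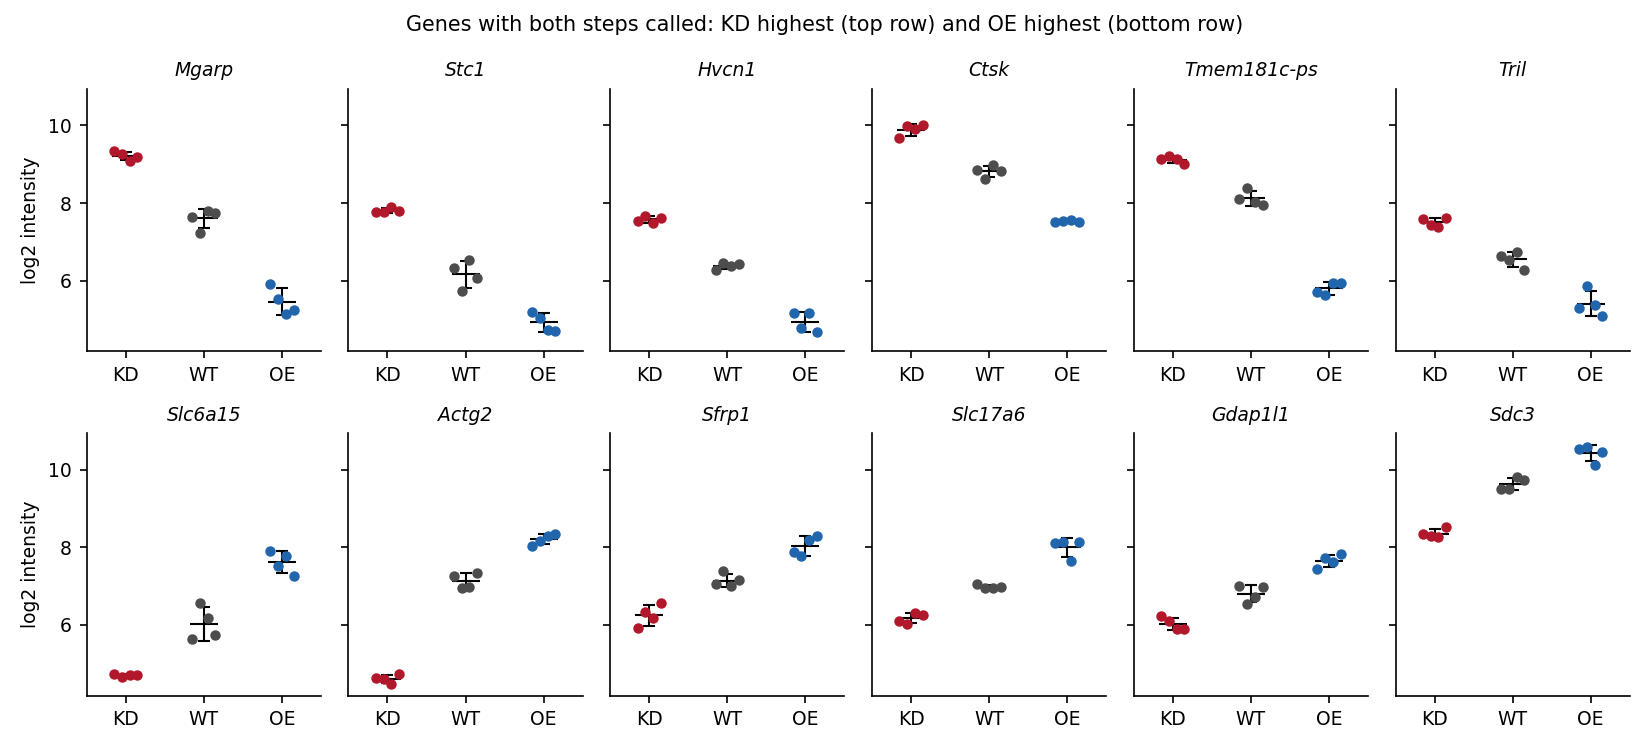
Log2 intensity (y axis) of the 6 genes per direction with the largest smaller step, on the 4 arrays of U17_KD, WT and U17_OE (x axis). Points are arrays, and bars are the mean ± SD. WT lies between the clones without overlap in all 12 genes, with Mgarp falling from 9.22 to 5.46 and Actg2 rising from 4.61 to 8.21 from U17_KD to U17_OE.

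Further genes of the ordered set, picked for their known function after their values were seen, covered growth factor signalling and the lysosome. Means are given in the order U17_KD, WT and U17_OE. Vegfc, a ligand of lymphatic growth, had 8.13, 6.86 and 6.43, and Flt1, a receptor for VEGF, had 8.54, 7.91 and 7.26. The WT and U17_OE arrays of Vegfc overlapped. Vcam1, an adhesion molecule, had 11.92, 10.98 and 10.37, and Ccn2, a matricellular target of TGF-beta, had 14.11, 12.97 and 12.55. On the other probe of Ccn2 the OE step was not called (-0.33, limma adjusted p = 0.176). Lysosomal enzymes took both orders: Arsb (10.68, 10.16 and 9.79) and Lgmn (11.55, 11.25 and 10.82) were highest in U17_KD like Ctsk. The other kept probe of Arsb was not called between the clones, and its 3 levels overlapped. Ctsl (8.95, 9.71 and 10.01) and the lysosomal membrane protein gene Cln3 (8.64, 9.16 and 9.51) were highest in U17_OE. Zfp704, which encodes a zinc finger protein, was detected in U17_OE alone, at least 2.60-fold above U17_KD.

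Glucose uptake and glycolysis genes were higher in U17_KD than in U17_OE, with WT mostly between. Of 18 members measured, 13 were called higher in U17_KD and 0 in U17_OE, where 16.5% of all genes were called in each direction, and the median difference was 0.48 against -0.01 over all genes. Called with WT between were 10 members, and both steps were called in 5, against 1.01% of all genes. The list was chosen with earlier results of these data known, so its counts are a description.

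Pdk1, the kinase that holds pyruvate back from the mitochondrion, had 10.39, 10.53, 10.54 and 10.51 in U17_KD, 9.78, 9.84, 9.84 and 9.80 in WT and 9.26, 9.31, 9.17 and 9.13 in U17_OE. The groups did not overlap, and the steps were of like size, 0.67 ± 0.08 (adjusted p = 2.07e-06) and 0.60 ± 0.08 (adjusted p = 5.43e-05). The other kept probe of Pdk1, detected on every array, had a KD step of 0.83 and an OE step of -0.41. That OE step was not called (limma, adjusted p = 0.0757). Pgk1, phosphoglycerate kinase, had 13.39, 13.48, 13.56 and 13.32 in U17_KD, 13.24, 13.21, 13.30 and 13.12 in WT and 12.95, 13.11, 12.93 and 12.78 in U17_OE. These groups did not overlap either, with smaller steps of 0.22 ± 0.08 (adjusted p = 0.0287) and 0.27 ± 0.08 (adjusted p = 0.0272). The phosphofructokinase gene Pfkl had means of 12.74, 12.46 and 12.10 in U17_KD, WT and U17_OE, the triose phosphate isomerase gene Tpi1 had 15.20, 14.88 and 14.62, and Pgm1, a phosphoglucomutase, had 13.89, 13.63 and 13.28. In Pfkl and Tpi1, 1 other probe each was not called between the clones.

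The other called glycolytic genes changed mainly in 1 clone. Eno2, an enolase, had a clone difference of 1.27 ± 0.08 (adjusted p = 1.19e-09), all of it in U17_KD: its OE step was -0.02 ± 0.08 (adjusted p = 0.904). Hk1 and Pfkm, a hexokinase and a phosphofructokinase subunit, were 0.80 and 0.77 higher in U17_KD than in U17_OE, with WT below both. Another kept probe of Hk1 had a difference of 0.39 (adjusted p = 0.0959). Ldha and Pgam1, which make lactate and 2-phosphoglycerate, differed by 0.46 and 0.45 between the clones, with the OE step called (-0.32 and -0.44) and the KD step not (0.14 and 0.01). Slc2a1, the main glucose transporter of fibroblasts, differed by 0.28 (adjusted p = 0.0419), with WT at the level of U17_KD and neither step called, and its call was lost in 13 of 24 alternative settings.

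The hypoxia list, which leaves out glycolysis, showed the same direction. Of 18 members measured, 13 were called higher in U17_KD and 2 in U17_OE, with a median difference of 0.66. That is 83.3% called, against 33.1% of all genes. The list holds targets of HIF and also regulators of HIF such as Hif1an, so its counts are not of targets alone. WT lay between in 10 of the called members, and both steps were called in P4ha2 and Fam162a. P4ha2 had 12.37, 12.32, 12.51 and 12.30 in U17_KD, 11.43, 11.44, 11.46 and 11.34 in WT and 11.11, 11.18, 10.86 and 11.19 in U17_OE. The groups did not overlap, with a KD step of 0.95 ± 0.08 and an OE step of -0.34 ± 0.08 (adjusted p = 0.0113). Fam162a, a mitochondrial protein induced by HIF, had 12.29, 12.36, 12.18 and 12.37 in U17_KD, 11.71, 11.66, 11.69 and 11.73 in WT and 11.37, 11.51, 11.40 and 11.52 in U17_OE. Its OE step was the smaller one, at -0.25 ± 0.07 (adjusted p = 0.0261).

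The subunits and sensors of the hypoxia response, some of them counted on the hypoxia list, did not all take that order. Arnt, the partner of the HIF alpha subunits, was 0.76 higher in U17_KD than in U17_OE (adjusted p = 0.000150), with the KD step called, though 1 of its 3 other probes was not called. Hif1a differed by 0.21 (adjusted p = 0.378). The oxygen-sensing hydroxylase genes Egln3 and Egln1, themselves targets of HIF, differed by 1.02 and 0.67, and in each the OE step was the one called, at -1.26 and -0.70, with U17_KD at -0.24 and -0.02 against WT. Bhlhe40, a transcriptional repressor, and Adm, the peptide hormone adrenomedullin, were 0.97 and 0.90 higher in U17_KD than in U17_OE, with the KD step called. Vegfa, a growth factor of vessels, and Hif1an, an inhibitor of HIF, were called the other way, with differences of -0.27 (adjusted p = 0.0460) and -0.39 (adjusted p = 0.0385) and WT above both clones. The other kept probe of each was not called, with differences of -0.22 for Vegfa (adjusted p = 0.470) and 0.005 for Hif1an (adjusted p = 0.989). The call of Vegfa was lost in 16 of 24 alternative settings and that of Hif1an in 10.

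**Figure D3:**
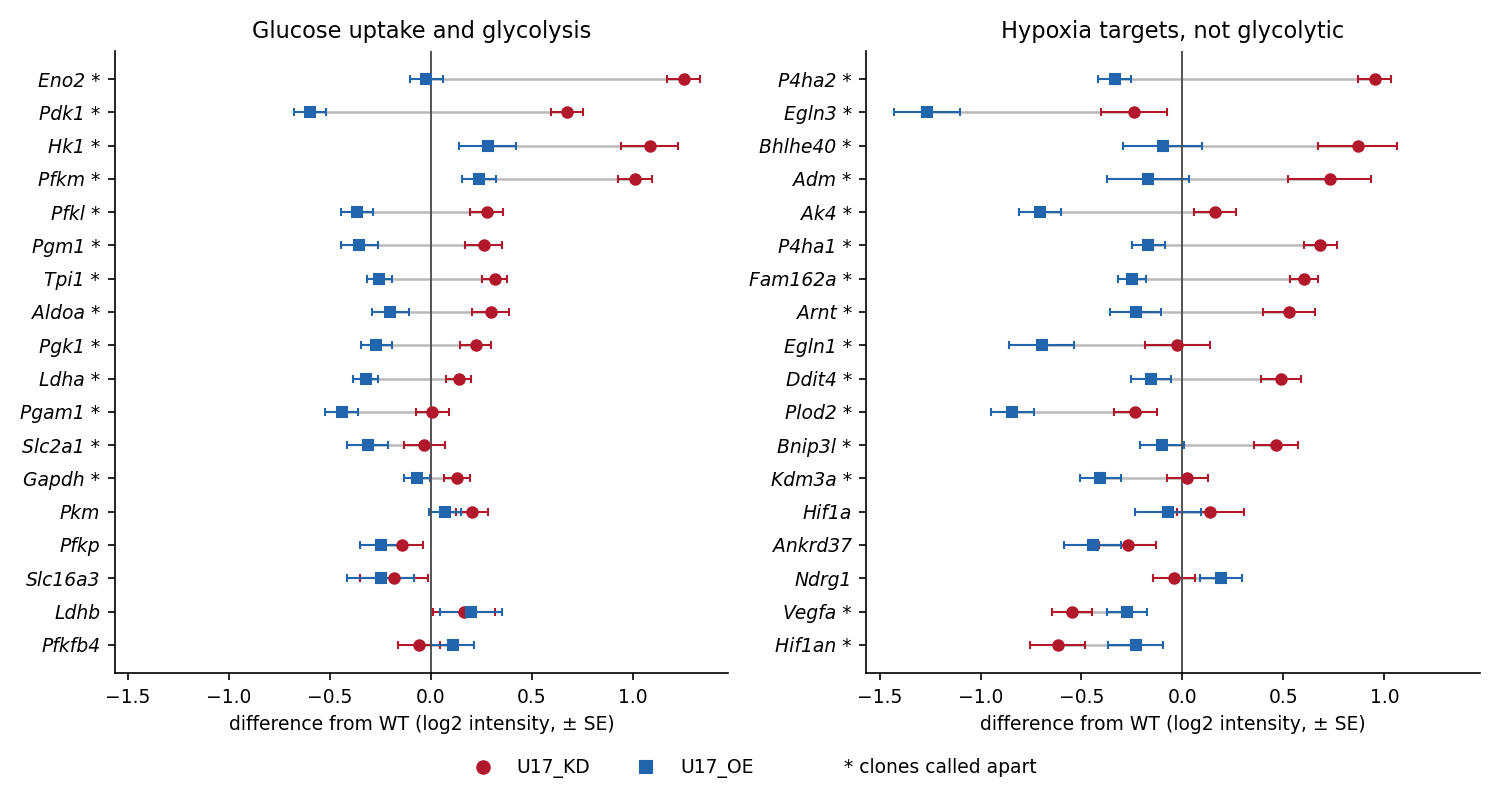
Difference from WT in log2 intensity (x axis, ± SE) for each measured member of the glycolysis list (left panel) and of the hypoxia list (right panel), with U17_KD as circles and U17_OE as squares. Asterisks mark the 13 and 15 members called between the clones. Members such as Pdk1 (0.67 and -0.60) lie on both sides of WT, Eno2 has only its KD step called, and Egln3 only its OE step.

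Genes of mitochondrial transport, fusion and contact with the endoplasmic reticulum did not follow Mgarp as a group. Of 24 measured, 5 were called higher in U17_KD and 2 in U17_OE (29.2%, near the 33.1% of all genes), with a median difference of 0.11, and Mgarp alone had both steps called. Mff, a receptor for the fission protein Drp1, was 1.26 ± 0.10 higher in U17_KD (adjusted p = 1.11e-08), with WT at the level of U17_OE. Rhot2, which links mitochondria to motor proteins, was lower in U17_KD than in U17_OE (-0.92 ± 0.07, adjusted p = 1.86e-08), also with WT near U17_OE. Mfn1, a mitofusin, and Itpr2, a calcium channel of the endoplasmic reticulum, were 0.42 and 0.52 higher in U17_KD with WT between, and only the OE step of Itpr2 was called.

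Of 14 measured genes of cholesterol synthesis, whose product the medium withholds, 1 was called higher in U17_KD and 3 higher in U17_OE. That is 28.6%, near the 33.1% of all genes called between the clones. WT lay between in 1 called member, Tm7sf2, a sterol reductase gene with means of 6.02, 6.93 and 6.98 in U17_KD, WT and U17_OE. Its WT arrays (6.74 to 7.03) and U17_OE arrays (6.69, 6.68, 7.58 and 6.97) overlapped. Without U17_OE replicate 3, WT lay between in 0 called members of this list. The median was 0.34 above WT in each clone. Lss, lanosterol synthase, was above WT in both clones and higher in U17_OE than in U17_KD (-0.31, adjusted p = 0.0171). Another probe of Lss, near the detection level, gave -0.12 (adjusted p = 0.635). Hsd17b7, a later enzyme, took the opposite direction (0.38, adjusted p = 0.0113). Among 19 genes of SREBP control and lipoprotein uptake, 3 were called higher in U17_KD and 2 in U17_OE (26.3%), with Insig2, which retains SREBP in the endoplasmic reticulum, 0.96 higher in U17_KD. Vldlr, a lipoprotein receptor, was detected on no U17_KD array and was at least 2.13-fold lower there than in U17_OE, with WT above both. Of 17 sterol trafficking genes, 4 were called each way (47.1%). Cav1, the coat protein of caveolae, was 0.82 higher in U17_KD and Lipa, the lysosomal acid lipase, lay at -0.68, both with the WT mean between. In both genes the WT and U17_OE arrays overlapped. For Cav1, U17_OE replicate 3 had 10.58, the other U17_OE arrays 11.41 to 11.82 and WT 11.18 to 11.67, so its place rests on that array.

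Nucleolar genes differed between the clones with WT mostly above both, not between. Of 33 measured genes of small nucleolar ribonucleoproteins and ribosomal RNA processing, 21 were called higher in U17_OE and 0 in U17_KD. That is 63.6%, against 33.1% of all genes. The median difference was -0.36, and both clones had medians below WT (-0.59 in U17_KD and -0.13 in U17_OE). WT was above both clones in 17 of the 21 and between them in 4. The 4 were Tbl3 (-1.24) and Rrp9 (-0.88), both proteins of the small subunit processome, Bop1 (-0.67), a factor of large subunit assembly, and Nop14 (-0.48), and none had its OE step called. Nop14 is named because it completes the 4. In Tbl3 and Rrp9 the WT and U17_OE arrays overlapped. There U17_OE replicate 3 was the highest array, at 9.28 and 9.97, with the other U17_OE arrays at 8.81 to 9.05 and 9.34 to 9.66. Ran cycle and nuclear transport genes had 8 of 25 called higher in U17_OE and 1 in U17_KD (36%, near the 33.1% of all genes). WT lay above both clones in all 9. Rcc1, the Ran exchange factor whose gene neighbours Snhg3, had 8.63, 8.63, 8.64 and 8.56 in U17_KD, 9.63, 9.26, 9.56 and 9.70 in WT and 9.22, 9.37, 9.23 and 9.44 in U17_OE. U17_KD did not overlap the other groups, while WT and U17_OE overlapped. Cytosolic ribosomal protein genes had 3 of 36 called higher in U17_KD and 8 in U17_OE (30.6%), with a median of -0.02.

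Extracellular matrix genes also separated the clones, again mostly with WT outside. Of 27 measured, 19 were called higher in U17_KD and 4 in U17_OE (85.2%, against 33.1% of all genes, median 0.56). WT lay below both clones in 14 of those called and between them in 5. Ogn, the small proteoglycan osteoglycin, had 9.26, 8.97, 8.87 and 8.85 in U17_KD, 6.27, 5.86, 6.22 and 6.54 in WT and 5.94, 6.16, 5.50 and 5.71 in U17_OE. WT and U17_OE overlapped, so its order rests on the KD step. Lox, the collagen cross-linking oxidase, was 1.70 higher in U17_KD with WT below both, and Thbs1, a matricellular protein, 1.38 higher with WT between. Dcn, the proteoglycan decorin, was the only member with both steps called, and in the other order: it had 11.72, 11.65, 11.60 and 11.68 in U17_KD, 12.08, 11.95, 12.16 and 12.04 in WT and 12.72, 12.76, 12.57 and 12.63 in U17_OE. Its 3 levels did not overlap, and its other 2 probes were called the same way between the clones. On 1 of these probes the KD step was not called (-0.39, limma adjusted p = 0.181). The 12 fibroblast markers, some of them on this list, summed to an intensity of 63718 to 67194 in U17_KD, 54720 to 61980 in WT and 53097 to 62459 in U17_OE, and their part in these counts was not tested.

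Chemokine, contractile and imprinted genes each held 1 or 2 members with both steps called. Of 11 chemokine and secreted inflammatory genes, 7 were called higher in U17_KD and 1 in U17_OE (72.7%, against 33.1% of all genes). Cxcl12, the ligand of Cxcr4, had 10.31, 10.57, 10.22 and 10.51 in U17_KD, 9.85, 9.86, 9.92 and 9.77 in WT and 8.57, 8.29, 7.85 and 8.39 in U17_OE. The groups did not overlap, and its other 2 probes had differences of 2.82 and 2.47. Of 25 TGF-beta target and contractile genes, 8 were called higher in U17_KD and 4 in U17_OE (48%). Ccn2 and Actg2, with both steps called, took opposite orders. Of 11 imprinted genes, 3 were called higher in U17_KD and 5 in U17_OE (72.7%). Peg3, a zinc finger gene expressed from the paternal allele, had both steps called, with means of 10.69, 10.09 and 9.74. Its WT and U17_OE arrays overlapped, and on its other probe neither step was called (limma, adjusted p = 0.0717 and 0.288). Ndn lay 1.85 apart with WT at the level of U17_KD and only the OE step called. Snurf was at least 9.11-fold higher in U17_OE than in U17_KD, with WT just above U17_OE.

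The other lists had no member with both steps called. ER chaperones and unfolded protein response genes had 7 of 16 called higher in U17_KD and 0 in U17_OE, with WT between in 1. ATF4 targets and serine-glycine synthesis had 3 and 9 of 24, with WT above both clones in 8. DNA replication had 0 and 7 of 29, mitosis 2 and 3 of 20, and ERK feedback 1 and 7 of 18. The interferon response had 5 and 1 of 15, p53 targets 5 and 5 of 17, NRF2 targets 8 and 8 of 22, and the respiratory chain 7 and 6 of 35, in each pair U17_KD first. The shares of DNA replication (24.1%) and mitosis (25%) lay below the 33.1% of all genes, and that of the respiratory chain (37.1%) near it. Those of the interferon response (40%), ER chaperones (43.8%), ERK feedback (44.4%) and ATF4 targets (50%) lay above it. So did those of p53 targets (58.8%) and NRF2 targets (72.7%).

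**Figure D4:**
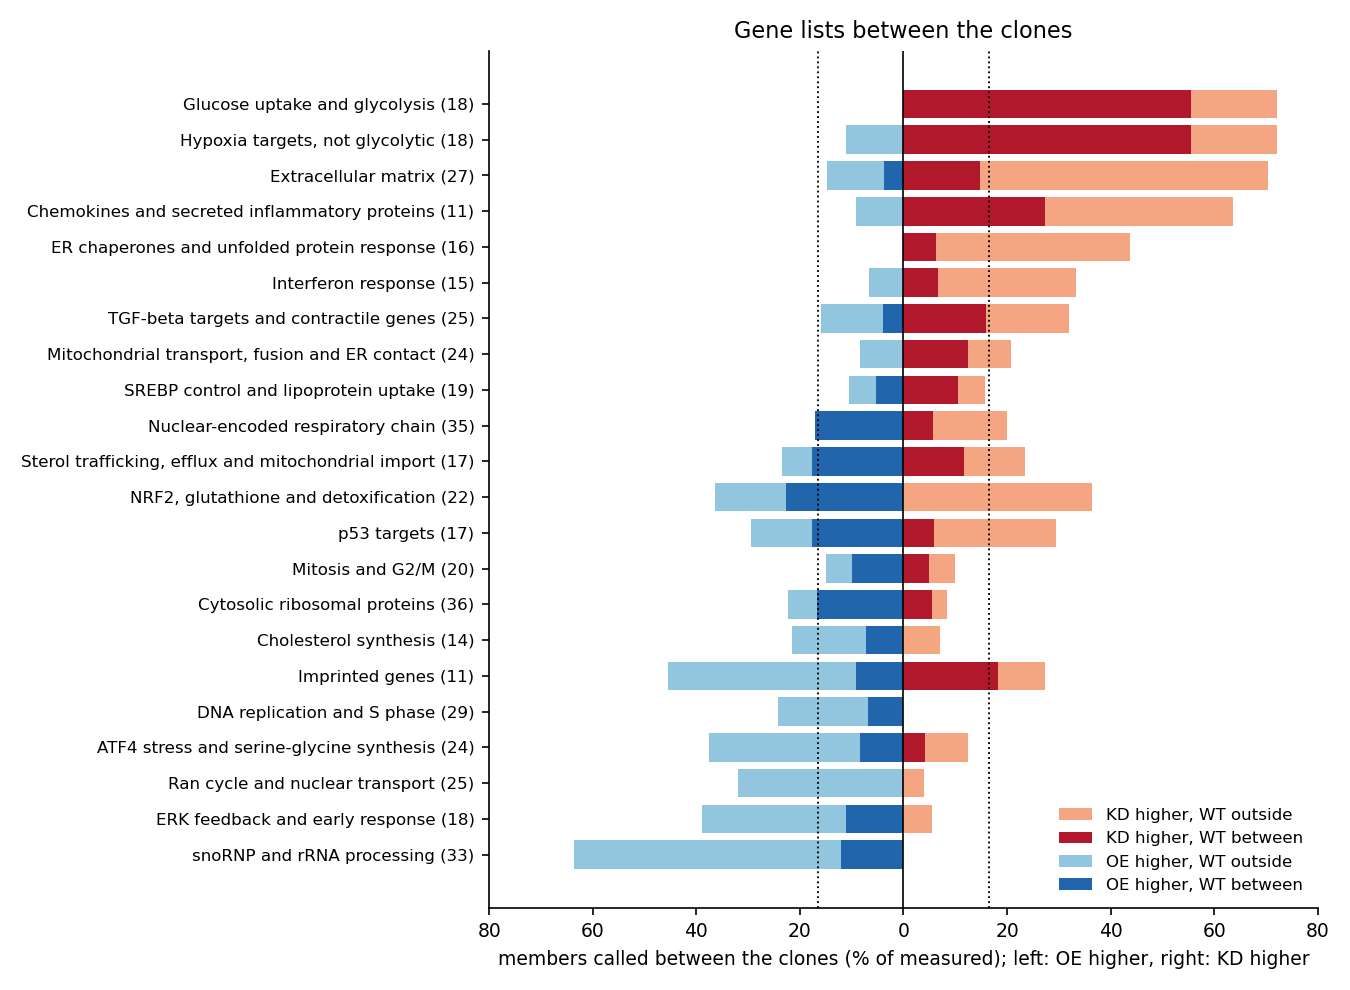
For each of 22 gene lists (measured members in parentheses), bars give the share of members called higher in U17_KD (right, red) and in U17_OE (left, blue) as a percentage of those measured, with dark shades where WT lay between the clones. Dotted lines mark 16.5%, the share of all genes called in each direction. Glycolysis and hypoxia have the longest dark red bars, 10 of 18 members each, while the bars of snoRNP and rRNA processing and of extracellular matrix are mostly pale.

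Among the genes with the largest differences, the KD step alone was called more often than both steps. Of 168 genes that differed at least 2-fold with WT between, 84 per direction, the KD step alone was called in 50 with U17_KD highest and in 44 with U17_OE highest, and both steps in 33 and 31. The median WT position was 0.202 and 0.239, near U17_OE in both. Rhox5, an X-linked homeobox gene, had 14.14, 14.18, 14.00 and 14.17 in U17_KD, 11.51, 11.04, 11.32 and 11.42 in WT and 11.13, 11.39, 11.12 and 11.34 in U17_OE. WT and U17_OE overlapped, as they did for Gbp2, an interferon-induced GTPase with means of 10.22, 7.99 and 7.89. Txnip, a glucose-responsive binder of thioredoxin, had 11.12, 9.12 and 8.94 in the order U17_KD, WT and U17_OE, an OE step of -0.18 (adjusted p = 0.169). Sft2d2, a protein of vesicle transport, had both steps called, with 8.07, 6.65 and 5.87. On neither of its other probes was the OE step called.

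Toward U17_OE, Renbp, an epimerase of amino sugars that binds renin, had the largest difference of all genes with WT between. It had 6.52, 6.89, 6.54 and 7.13 in U17_KD, 11.14, 10.83, 10.91 and 10.98 in WT and 11.25, 11.22, 11.26 and 11.33 in U17_OE. U17_KD stood far below both, and the OE step of 0.30 ± 0.12 was not called (adjusted p = 0.12). Tenm4, a teneurin of cell adhesion, had means of 6.57, 8.83 and 9.46, Dkk3, of the Dickkopf family, 5.70, 7.95 and 8.53, and Fez1, an adaptor of kinesin, 9.28, 11.25 and 11.86. Kcnn4, a calcium-activated potassium channel, had 7.12, 8.57 and 9.30, and Cenpv, a centromere protein, 8.22, 9.83 and 10.22. In these 5 both steps were called and the KD step was the larger. Atg9b, an autophagy gene, had 6.15, 8.45 and 8.46, with no measurable OE step (0.01 ± 0.14).

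Genes detected on all arrays of 1 clone and on none of the other were also chosen for their bounds. Of these, Stc1, Tmem181a, Actg2 and Slc6a15 are described above. The KD and OE steps were 1.64 and -1.24 in Stc1 and -1.32 and 1.59 in Slc6a15. In the remaining 4 genes the steps were unequal. Brinp3, a neural gene, was at least 9.06-fold higher in U17_KD and detected on no WT or U17_OE array. Lpar4, a receptor for lysophosphatidic acid, had the opposite spacing, with 8.45, 8.02, 8.11 and 8.09 in U17_KD, 7.77, 7.45, 7.94 and 7.87 in WT and 5.38, 5.22, 5.04 and 5.27 in U17_OE, at least 6.17-fold lower in U17_OE than in U17_KD. WT and U17_KD lay close without overlapping, and the KD step was 0.41 ± 0.14 (adjusted p = 0.0255). Havcr2, the receptor TIM-3, was at least 6.28-fold higher in U17_OE than in U17_KD, and Nudt16, a decapping enzyme that binds the U8 small nucleolar RNA in Xenopus, at least 5.05-fold. In both, WT lay close to U17_OE and the OE step was not called (adjusted p = 0.534 and 0.359).

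With WT outside, both clones called against WT and the clones called apart, there were 349 genes (3.83%), 219 with WT below and 130 with WT above. Without U17_OE replicate 4 the count was 223. The LIM domain gene Lmcd1 had means of 9.02, 4.91 and 5.64 in U17_KD, WT and U17_OE, and the glutamate transporter gene Slc1a3 had 12.97, 9.89 and 10.49. No WT array detected Lmcd1 on either of its other kept probes. On 1 of these its OE step was called (0.61, limma adjusted p = 0.0105) and on the other it was not (0.21, limma adjusted p = 0.384). Ly6c1, a surface antigen, had 10.96, 6.87 and 8.48, and Olfm1, a secreted olfactomedin, 10.44, 6.41 and 8.02. The clones thus lay on the same side of WT, with U17_KD farther. With WT above, Smoc1, a matricellular protein, was at least 7.07-fold higher in U17_OE than in U17_KD, and the zinc finger gene Bnc1 had 5.18, 9.15 and 8.55. The embryonic globin gene Hbb-bh1 was at least 4.64-fold higher in U17_OE than in U17_KD, and the protease gene Klk8 had 5.80, 8.93 and 8.29. In these 8 genes too the difference from WT was larger in U17_KD than in U17_OE.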

How the data were processed

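Poly-A RNA was selected by an oligo-dT primer and the label was biotin, per the labels' protocols. GenomeStudio 2010 is the software given in the submitters' processing notes. The authors deposited a table of background-subtracted probe intensity values on a linear scale, normalized between arrays by a method not given in the sources used here. A further deposited table holds, per the file headers, intensity before normalization and the detection p-value of each probe. Only its WT columns were used, and 40 of its 48 columns were not, because the clone columns carry names that no label holds.

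The background (mean 0.492, SD 15.7) was taken from the WT detection p-values for normexp on all 12 arrays of the normalized table, followed by log2 after an offset of 16. A probe was taken as detected at an intensity of 30.5 or more, and the 16706 of 45281 probes that reached this level on 4 arrays or more were kept. For each of 9108 genes the named probe with the highest mean was used, named through the platform annotation. A fit in limma 3.58.1 (R 4.3.3) with 3 group means and 9 residual degrees of freedom gave the 3 contrasts, with two-sided tests, Benjamini-Hochberg adjustment over all kept probes within a contrast, and a threshold of 0.05. The fit was checked on simulated data. Log2 differences of probes below the detection level depend on the offset and are no bounds.

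WT counts as between where its mean lies between the clone means. The genes described are, per direction, the 8 with the largest smaller step among those with both steps called, the 8 with the largest clone difference with WT between and detection on at least 3 arrays of each clone, the 4 with the largest bound, and the 4 largest with WT outside. Up to 4 members per list in its main direction and 2 in the other, Mgarp and Rcc1 complete the rule, and not all of them are printed. Other members of the glycolysis and hypoxia lists, Nop14, Vegfc, Flt1, Vcam1, Arsb, Lgmn, Ctsl, Cln3 and Zfp704 were chosen after their values were seen. The members and the 22 lists were chosen with earlier results of these data known. Replicate numbers are shared between groups in the labels, but deviations of same-numbered arrays correlated at -0.382 to 0.0891, so the numbers were not taken to pair arrays. Alternatives covered background, offset, normalization, filter, samples, variance model, replicate number, single arrays and probe choice. The number of arrays limits the precision.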

Additional observations from a re-analysis of the deposited data

Results flagged for a closer look

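In 282 groups of 4 arrays, 3 for each of 94 genes named with values, 14 had 1 array farther from the other 3 than Dixon's 95% critical value allows, where chance flags about 1 in 20 groups. U17_OE replicate 3 accounted for 4 of them: Slc17a6 at 7.64 (others 8.10 to 8.14), Dkk3 at 8.06 (others 8.67 to 8.70), Ndn at 9.41 (others 9.73 to 9.79) and Lgmn at 11.08 (others 10.71 to 10.73). In U17_KD, replicate 3 stood high for Stc1 (7.89), Pgm1 (14.00) and Slc1a3 (13.08). Replicate 4 of U17_KD stood apart for Pgam1 (11.95), Lipa (7.62) and Rcc1 (8.56). The others were Lipa in U17_OE replicate 1 (7.65), Gbp2 in U17_OE replicate 2 (7.97), and Tmem181a (7.41) and Slc17a6 (7.07) in WT replicate 1. For Slc17a6, Dkk3 and Lgmn the array lay on the side of WT and for Ndn on the side away from it, and the 3 groups of Slc17a6 and Dkk3 still did not overlap.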

How the results depend on the processing

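Of 24 alternatives, 23 gave both steps, and the fit on the 8 clone arrays alone gave the clone contrast only, with 2707 genes called. Leaving out 1 array at a time gave 2486 to 3456 genes called between the clones, 1169 to 1676 with WT between, 68 to 143 with both steps called and 223 to 473 with WT outside. The 143 genes with both steps called came without U17_OE replicate 3, and the 223 with WT outside without U17_OE replicate 4. With no filter on dim probes 218 had WT outside. With the replicate block, 2644 genes were called, 1257 with WT between, 68 with both steps called and 241 with WT outside, and the numbers were not taken to pair the arrays. In all 23 alternatives 43 of the 92 genes had both steps called, 25 with U17_KD highest and 18 with U17_OE highest, and 0 took the opposite order in any. Mgarp, Stc1, Ctsk, Pdk1 and P4ha2 were among the 25. The other glycolysis and hypoxia list members with both steps called, Pgk1, Pfkl, Tpi1, Pgm1 and Fam162a, lost a step in at least 1 alternative. Members called higher in U17_KD were 13 in every setting for hypoxia and 11 to 14 for glycolysis, and members called higher in U17_OE were 17 to 24 for snoRNP and rRNA processing. The place of WT varied more for hypoxia: called members with WT between were 8 to 11 for hypoxia and 8 to 11 for glycolysis. The 8 came without U17_OE replicate 3 for hypoxia and without U17_OE replicate 2 for glycolysis. Of 94 genes named with values, 89 kept direction and side of the threshold in every alternative, and Hif1an, Lss, Nop14, Slc2a1 and Vegfa fell short of the threshold in some without changing direction. The cause of these shifts was not tested. Slide as a block was not run, because slides are not given for the arrays compared. Genes near the detection level carry the least certain differences.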
